A study of Mus musculus with 4 samples.

Results

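A set of 10 genes of the CD300 and Fc receptor families was followed through the leukocytes of DOCA-salt and sham mouse hearts. They were Cd300a, Cd300c2, Cd300e, Cd300ld3, Cd300lf, Fcgr1, Fcgr2b, Fcgr3, Fcgr4 and Fcer1g, taken by exact gene symbol from both count matrices, and all 10 were found among 31053 genes. The DOCA-salt group was C57Bl6J mice given deoxycorticosterone acetate and salt, a regimen that raises blood pressure, and the sham group was C57Bl6J control mice. Left ventricles were digested, CD45+ cells were enriched and sorted live, and the 4 mice of each group, told apart by hashtag antibodies, were pooled into 1 library per group for 5' single-cell sequencing with antibody tags. Treatment and library therefore cannot be told apart. Age, sex and length of treatment are not given in the sources used here.

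CD300 proteins are immunoglobulin-like receptors of myeloid cells that bind lipids exposed on dying or activated cells. Some carry inhibitory motifs in their own tail, and others signal through adaptors with an activating motif. Fc gamma receptors bind the constant part of IgG and are paired in the same way, since Fcgr1, Fcgr3 and Fcgr4 activate through the common gamma chain encoded by Fcer1g, whereas Fcgr2b inhibits. On heart macrophages these receptors take part in the uptake of antibody-coated material and of dead cells.

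After filtering, 6864 DOCA-salt and 4080 sham cells were analysed, with 764 to 2172 cells per DOCA-salt mouse and 624 to 1281 per sham mouse. Median depth per mouse ran from 2969 to 3346 UMIs (unique molecules) in DOCA-salt mice and from 2675 to 2897 in sham mice, and 36 analysed barcodes occurred in both libraries. Cells were clustered without the 10 genes and named from marker genes, so names are "like" names. Mixed clusters were set aside only when macrophages and dendritic cells were reclustered. The rule was at least 50% of the markers of a lymphocyte or non-leukocyte list. The nonclassical monocyte-like cluster was not screened in this way and also bore 4 of the 8 classical monocyte markers (Chil3, Plac8, F10 and Hp). Some classes rest on few sham cells. The macrophage-like class held 704 DOCA-salt and 293 sham cells, the nonclassical monocyte-like class 121 and 110, the classical monocyte-like class 138 and 27, the neutrophil-like class 154 and 13, and the B-like class 2661 and 1998. Levels are CPM, the gene's UMIs per 1000000 UMIs of the class in 1 mouse, and are compared across classes and groups but not between genes. Changes are log2 ratios of DOCA-salt over sham from the edgeR quasi-likelihood test on UMIs summed per mouse, 4 mice against 4, with Benjamini-Hochberg adjustment over all genes tested in the class and a threshold of 0.05.

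The 5 CD300 genes lie together on chromosome 11 of GRCm38, with Cd300a at chr11:114890041-114904654 on the plus strand and Cd300c2, Cd300ld3, Cd300e and Cd300lf on the minus strand up to position 115133992. Fcgr2b, Fcgr4, Fcgr3 and Fcer1g lie on chromosome 1 between 170958617 and 171234365, and Fcgr1 is at chr3:96282909-96293969 on the minus strand. Cd300ld3 (chr11:115042131-115048409) sits beside the copies Cd300ld4 and Cd300ld5. Of its transcript's windows of 91 bases, 81.1% occurred unchanged in another gene, and of those within its first 300 bases, where 5' reads fall, 31.4% did. Counts for Cd300ld3 are therefore uncertain where reads fit several copies. In nonclassical monocyte-like cells Cd300ld4, Cd300ld5 and Cd300ld2 had 0 UMIs in all mice, but every window of Cd300ld5 occurred in another gene, so a 0 there need not mean no transcript.

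The RefSeq promoters (GRCm38.p6, 250 bases before the start to 50 after) of Cd300ld3 at chr11:115048281-115048580 and Cd300ld5 at chr11:115037641-115037940, both on the minus strand, are shown because the genes are near copies. They differed at 15 of 300 positions, marked by capitals, of which 2 lie after the start site.
Cd300ld3: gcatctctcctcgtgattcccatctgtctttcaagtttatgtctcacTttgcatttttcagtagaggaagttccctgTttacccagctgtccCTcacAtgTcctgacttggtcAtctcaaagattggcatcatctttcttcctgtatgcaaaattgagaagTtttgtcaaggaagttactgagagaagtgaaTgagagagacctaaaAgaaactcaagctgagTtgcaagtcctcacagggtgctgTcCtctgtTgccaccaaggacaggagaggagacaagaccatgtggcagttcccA
Cd300ld5: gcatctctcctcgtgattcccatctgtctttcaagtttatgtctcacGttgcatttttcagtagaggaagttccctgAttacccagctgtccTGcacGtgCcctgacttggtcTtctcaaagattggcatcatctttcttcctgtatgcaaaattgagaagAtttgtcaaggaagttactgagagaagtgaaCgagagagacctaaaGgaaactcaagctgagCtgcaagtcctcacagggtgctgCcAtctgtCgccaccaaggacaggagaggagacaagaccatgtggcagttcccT
Promoters of Fcgr4 (chr1:171018676-171018975, plus strand) and Cd300e (chr11:115061990-115062289, minus strand) are shown as examples of genes highest in nonclassical monocyte-like cells. Cd300ld3, Cd300a, Cd300c2 and Fcer1g were highest there too. Capitals mark AGGAAGT or its complement, a core of the sites of ETS factors such as PU.1.
Fcgr4: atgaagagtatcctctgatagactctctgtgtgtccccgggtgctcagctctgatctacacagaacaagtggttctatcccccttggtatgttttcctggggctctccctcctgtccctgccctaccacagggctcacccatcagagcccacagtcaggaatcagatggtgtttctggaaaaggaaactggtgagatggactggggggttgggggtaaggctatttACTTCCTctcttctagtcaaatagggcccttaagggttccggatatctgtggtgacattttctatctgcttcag
Cd300e: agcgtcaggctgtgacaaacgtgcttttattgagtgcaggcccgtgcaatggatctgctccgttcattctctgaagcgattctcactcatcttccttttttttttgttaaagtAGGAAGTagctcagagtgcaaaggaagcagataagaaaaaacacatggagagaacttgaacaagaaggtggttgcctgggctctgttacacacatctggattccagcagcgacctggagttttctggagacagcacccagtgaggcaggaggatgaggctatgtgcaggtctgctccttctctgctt
AGGAAGT was present on either strand in 6 of 10 members (Cd300c2, Cd300e, Cd300ld3, Cd300lf, Fcgr1 and Fcgr4) and in 9.35% of the 32851 RefSeq promoters. Cd300a and Fcer1g, also highest in nonclassical monocyte-like cells, had no match. The longer GAGGAAGT, which contains AGGAAGT, was in Cd300ld3, Cd300lf and Fcgr4 and in 3.2% of promoters. TTCNNNGAA, a STAT site, was in Cd300e and Fcgr1 and in 8.3% of promoters, and the interferon-stimulated response element was in Cd300c2 and Fcgr4 and in 3.44%, both searched on both strands. The motifs were chosen after the sequences were seen, and a match describes letters only.

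Each CD300 gene had its own class profile. Cd300e, which in humans encodes an activating receptor of monocytes, averaged 421 ± 98.8 CPM in nonclassical monocyte-like cells (SD, n = 8 mice) with a lowest mouse of 306, and at most 8.23 CPM on average in any other class. Classical monocyte-like cells held no Cd300e UMI in any mouse. Cd300ld3 averaged 637 ± 213 CPM in nonclassical monocyte-like and 336 ± 97.4 CPM in macrophage-like cells, and their mice overlapped, whereas the next class, neutrophil-like cells, averaged 52.3 CPM. Cd300lf, an inhibitory receptor, was highest in neutrophils, at 658 ± 217 CPM in neutrophil-like cells with a lowest mouse of 461, against 39.4 ± 33.5 CPM in classical monocyte-like cells. Cd300c2, an activating receptor, was highest in nonclassical monocyte-like cells at 852 ± 162 CPM, then macrophage-like cells at 393 ± 60.1 CPM, and these overlapped through 1 low mouse. Cd300a, an inhibitory receptor of phosphatidylserine, was broad. It averaged 670 ± 72.5 CPM in nonclassical monocyte-like, 546 ± 158 CPM in plasmacytoid dendritic-like, 437 ± 286 CPM in neutrophil-like and 414 ± 66.2 CPM in classical monocyte-like cells, and each overlapped the next. B-, NK- and T-like cells held all 5 at under 20 CPM on average.

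The Fc receptors split the myeloid classes differently. Fcgr1, the high-affinity IgG receptor CD64, averaged 279 ± 70.4 CPM in macrophage-like cells, 129 ± 56.2 CPM in classical monocyte-like and 53.5 ± 30.7 CPM in the nonclassical cells (SD, n = 8), with overlap at each step. Fcgr3, a low-affinity activating receptor, averaged 1180 ± 169 CPM in macrophage-like cells, whose lowest mouse (910) was above the highest neutrophil-like mouse (809). Fcgr4, the activating receptor typical of nonclassical monocytes in mice, averaged 469 ± 119 CPM there, and its lowest mouse (347) was above all macrophage-like mice (35.4 to 145). The inhibitory Fcgr2b averaged 841 ± 161 CPM in macrophage-like cells, 390 ± 331 CPM in cDC2-like cells and 252 ± 89.5 CPM in classical monocyte-like cells. Among lymphocytes it stood out in B-like cells at 114 ± 8.18 CPM, against 55.7 ± 13.5 CPM in NK-like and 17.9 ± 8.65 CPM in T-like cells, without overlap between B-like and either. Fcer1g was highest in nonclassical monocyte-like cells at 4935 ± 347 CPM and next in NK-like cells at 3591 ± 148 CPM, which did not overlap. B-like cells were lowest at 57.2 ± 8.73 CPM. Plasmacytoid dendritic-like cells held Fcer1g at 1780 ± 711 CPM but no UMI of Fcgr3 or Fcgr4.

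**Figure D1:**
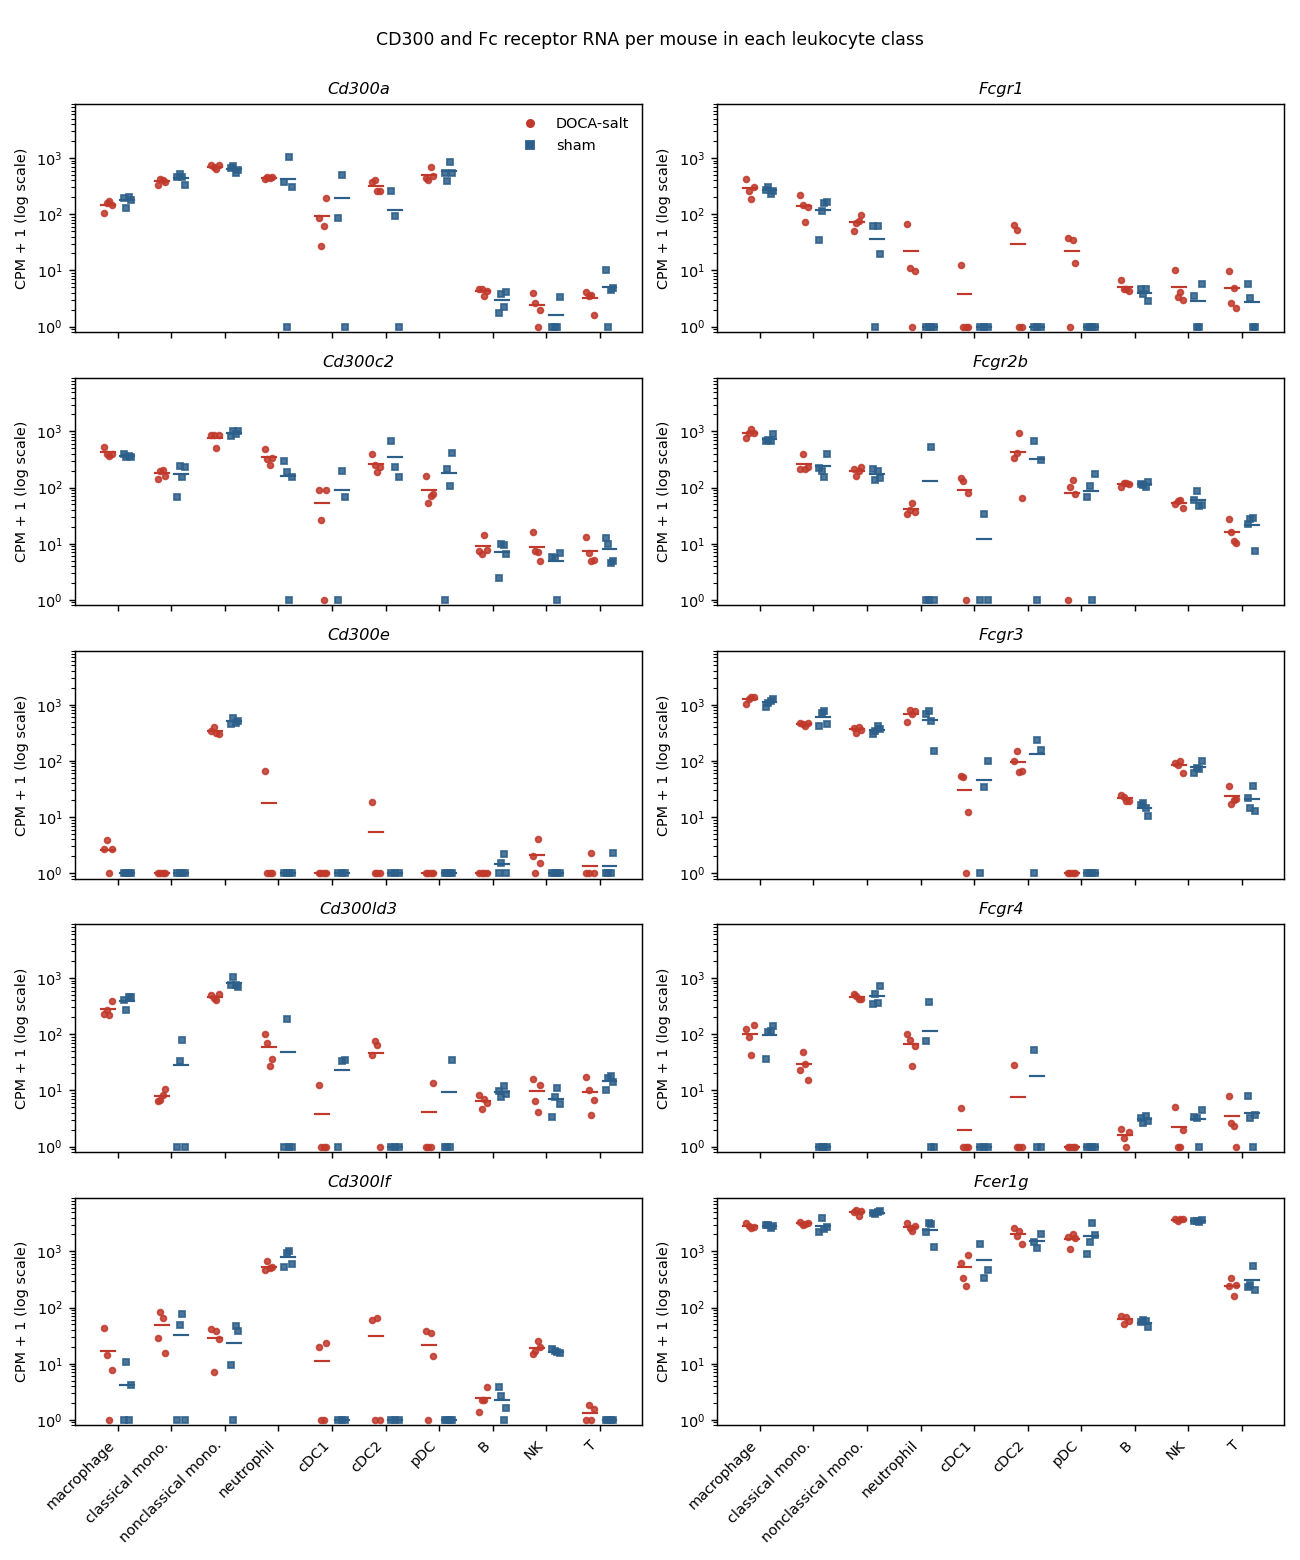
CPM + 1 on a log axis for the 10 genes in 10 leukocyte classes. Each point is a mouse, DOCA-salt circles left and sham squares right, and lines are group means. Cd300e stands at 306 to 573 CPM in nonclassical monocyte-like cells and at most at 65.8 CPM in any mouse elsewhere, Cd300lf is highest in neutrophil-like cells, and Fcer1g is lowest in B-like cells.

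By likeness of log2(CPM + 10) over 78 class-by-mouse profiles of 10 classes and 5793 genes, Cd300e was closest to Eno3 (Pearson r = 0.948), Slc12a2 (0.947), Treml4 (0.926), Ace (0.916) and Ly6i (0.867). Fcgr4 was closest to Cd300ld3 (0.851), Smpdl3b, Cd300ld, Tlr13 and Slc12a2 (0.763). Among the genes closest to Fcgr1 were Ms4a6d (0.908), Adgre1 (0.865), Msr1 (0.839) and Ms4a4a (0.824). These are descriptions over profiles that share mice, libraries and depth.

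In nonclassical monocyte-like cells, the patrolling monocytes that crawl along vessel walls, Cd300ld3 fell in DOCA-salt hearts. It stood at 489.5, 447, 409 and 528 CPM in the 4 DOCA-salt mice, against 747, 1048, 749 and 679 CPM in the 4 sham mice. Every DOCA-salt mouse was below every sham mouse. The log2 change was -0.80 with an SE of 0.17 and an adjusted p of 0.0088 (edgeR). Of the 10 genes 8 were tested in this class and 1, Cd300ld3, was called, while 1.83% of all 1696 genes tested were called and 1.36% were called lower. It was also the 1 call among the 65 pairs of a member and a class tested with edgeR, of which 8 had an unadjusted p under 0.05. These pairs overlap, since clusters within a larger class are counted again. Unadjusted p under 0.05 was common among all genes too. In nonclassical monocyte-like cells 2 of 8 members and 215 of 1696 genes had it, and in macrophage-like cells 1 of 8 and 394 of 4378. Without sham mouse 2 the log2 change was -0.61 and the adjusted p 0.109.

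Cd300e stood at 340, 397, 310 and 306 CPM in DOCA-salt mice, against 452, 573, 474 and 514 CPM in sham mice. The groups did not overlap, as with Cd300ld3 and with 4.19% of all genes tested in this direction, but the test across genes was not passed (log2 change -0.57, SE 0.18, adjusted p = 0.106 by edgeR). Cd300c2 had 849, 875, 496 and 860 CPM in DOCA-salt mice and 816, 1021, 886 and 1009 CPM in sham mice, which overlapped (log2 change -0.25, edgeR adjusted p = 0.54). Of the receptors for IgG and their gamma chain, Fcgr2b, Fcgr3, Fcgr4 and Fcer1g were tested and not called. Fcgr4 averaged 455 ± 44.0 CPM in DOCA-salt and 484 ± 174 CPM in sham mice, and Fcgr3 averaged 362 ± 34.9 and 356 ± 45.8 CPM (SD, n = 4 each). Fcer1g averaged 4964 ± 488 CPM in DOCA-salt and 4906 ± 202 CPM in sham mice. Their log2 changes were -0.05, 0.03 and 0.02, with edgeR adjusted p of 0.951, 0.969 and 0.961. Cd300a averaged 703 ± 50.5 CPM in DOCA-salt and 636 ± 82.3 CPM in sham mice, a log2 change of 0.13 (edgeR adjusted p = 0.794). Fcgr2b averaged 199 ± 27.8 CPM in DOCA-salt and 174 ± 39.9 CPM in sham mice (log2 change 0.17, edgeR adjusted p = 0.814). Fcgr1, too low for the count filter, stood at 49.95, 68.2, 74.4 and 95.02 CPM in DOCA-salt mice and 60.8, 0, 61.1 and 18.4 CPM in sham mice. The groups overlapped (exact permutation p = 0.114), and without the filter the log2 change was 1.18 (SE 0.47, edgeR adjusted p = 0.547). An Fcgr1 UMI was in 20.7% of DOCA-salt and 7.27% of sham cells of the class, and in 5.93% and 2.0% after thinning, against 1.2% and 0.801% of B-like cells, unthinned.

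**Figure D2:**
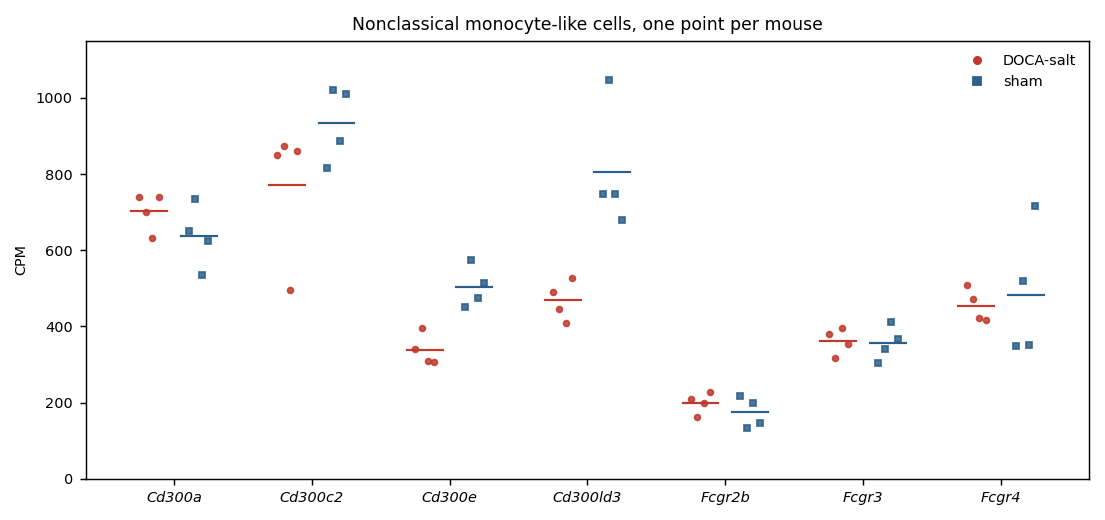
CPM in nonclassical monocyte-like cells for 7 of the genes, with 1 point per mouse, DOCA-salt circles left, sham squares right, and group means as lines. All DOCA-salt mice lie below all sham mice for Cd300ld3 (409 to 528 against 679 to 1048) and Cd300e (306 to 397 against 452 to 573), and the groups overlap for the other genes.

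The share of cells that held a classical monocyte transcript also differed between the groups. Cells with a UMI of Chil3, Ccr2 or Vcan were 52.2%, 29.3%, 55.6% and 53.8% of the class in DOCA-salt mice, against 15.4%, 5.71%, 22.2% and 11.1% in sham mice. In B-like cells, which should lack these genes, the shares were 5.09% to 6.83% in DOCA-salt and 0.671% to 1.21% in sham mice, at median depths of 3004 and 2710 UMIs, against 3992 and 3412 UMIs in the nonclassical class. In the cells without such a UMI, Cd300ld3 averaged 872 ± 194 CPM in DOCA-salt and 908 ± 134 CPM in sham mice, and Cd300e averaged 612 ± 166 and 573 ± 59.9 CPM (SD, n = 4 each). In the cells with one, Cd300ld3 averaged 182 ± 79.0 CPM in DOCA-salt and 375 ± 281 CPM in sham mice, which overlapped. These means rest on 10 to 21 cells per DOCA-salt mouse but only 6, 2, 4 and 2 cells in the sham mice. Refitted on the cells without such a UMI, a split chosen once the values were known, the log2 change was -0.13 (SE 0.18, edgeR adjusted p = 0.863) for Cd300ld3 and 0.005 (edgeR adjusted p = 0.999) for Cd300e. That fit rests on 8 to 29 cells per DOCA-salt mouse and 14 to 33 per sham mouse. The split uses Chil3, itself higher in DOCA-salt mice, and takes out deeper cells (median 4409 to 5007 UMIs in DOCA-salt and 3530 to 4889 in sham mice, against 3490 to 4358 and 3214 to 3645 in the cells kept), so it removes unequal parts of the groups and does not show what lowered Cd300ld3.

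Marker genes of other cell types also differed in this class. Chil3, a classical monocyte gene, was called higher in DOCA-salt mice (192 to 682 CPM, against 0 to 45.9 in sham mice; log2 change 5.09, edgeR adjusted p = 1.4e-06), as was Hp (1.82, adjusted p = 0.0008). Of the 8 classical markers 4 were tested and only these 2 were called. Ccr2 was not called (log2 change 1.14, edgeR adjusted p = 0.153). Ly6c2 did not pass the count filter, at 0 to 49.95 CPM in DOCA-salt and 17.4 to 45.9 CPM in sham mice, which overlapped. The 8 classical markers summed to 1878 to 3644 CPM in DOCA-salt and 1155 to 1635 CPM in sham mice. The 10 macrophage markers summed to 3875 to 6333 and 2950 to 3812 CPM, with Mertk at 0. Most of the macrophage sum was Apoe, at 2518 to 5490 CPM in DOCA-salt and 2048 to 2553 CPM in sham mice. Of the 4 macrophage markers tested only Apoe was called (log2 change 0.77, edgeR adjusted p = 0.0113). It was also called higher in macrophage-like, B-like and NK-like cells. The 8 nonclassical markers summed to 4957 to 6343 CPM in DOCA-salt and 6086 to 6890 CPM in sham mice. Of these Pglyrp1 was called lower (log2 change -0.59, edgeR adjusted p = 0.022), while Ace (-0.05), Treml4 (0.16) and Nr4a1 (-0.17) were not called. Among cells without a UMI of C1qa, C1qb or C1qc, the macrophage complement genes, the Cd300ld3 change was -0.56 and the adjusted p 0.273. The part of macrophage transcripts in the result was not tested further.

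Macrophage-like cells, the phagocytes that live in the heart wall, gave no call among the 10 genes, of which 8 were tested, against 0.32% of 4378 genes. Cd300ld3 was again the member with the smallest p, at 230, 270, 223 and 391.9 CPM in DOCA-salt mice and 398, 273, 451 and 454 CPM in sham mice. The groups overlapped through DOCA-salt mouse 4 and sham mouse 2 (log2 change -0.51, SE 0.21, edgeR adjusted p = 0.468). Fcgr2b averaged 944 ± 146 CPM in DOCA-salt and 740 ± 105 CPM in sham mice (log2 change 0.31, SE 0.16, edgeR adjusted p = 0.581). Fcgr3 averaged 1260 ± 164 CPM in DOCA-salt and 1101 ± 152 CPM in sham mice, a log2 change of 0.16. Fcgr1 averaged 293 ± 99.9 CPM in DOCA-salt and 264 ± 31.6 CPM in sham mice, also 0.16 on the log2 scale. Fcgr4, Fcer1g, Cd300a and Cd300c2 had log2 changes of 0.005, -0.03, -0.31 and 0.21, and edgeR adjusted p of at least 0.712. Whether the Cd300ld3 difference was larger in nonclassical monocyte-like than in macrophage-like cells was compared per mouse, and the difference of log2 ratios was -0.26 (exact permutation p = 0.543, adjusted over 5 such comparisons 0.543).

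**Figure D3:**
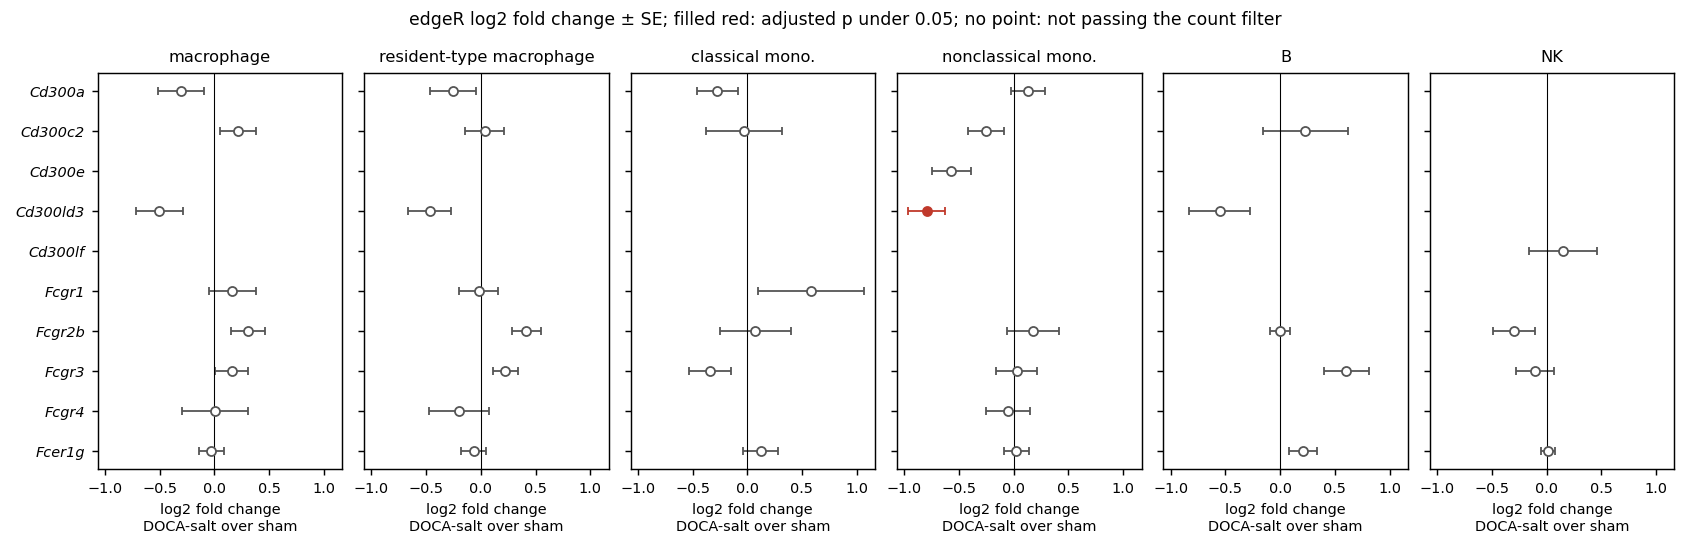
Log2 fold change of DOCA-salt over sham with its SE for the genes that passed the count filter in 6 classes. The filled red point, Cd300ld3 in nonclassical monocyte-like cells at -0.80, is the 1 with an adjusted p under 0.05, and the open points are not past the threshold.

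Reclustering split the macrophages into a resident-type cluster (Lyve1, Cd163, Vcam1; 271 DOCA-salt and 166 sham cells), a cluster led by Ifit1, Rsad2, Fn1 and Chil3 (227 and 23 cells), a cluster led by Ccl8, Wfdc17 and Folr2 (102 and 39), an early-response cluster led by Egr1 and Fosb (60 and 50) and a cycling cluster led by Ccnb1 (44 and 15). In resident-type cells Fcgr2b stood at 1073, 1132, 1437 and 1124 CPM in DOCA-salt mice, against 756, 847, 814 and 972 CPM in sham mice. All DOCA-salt mice were above all sham mice, yet the test across genes was not passed (log2 change 0.41, SE 0.13, edgeR adjusted p = 0.179). Fcgr3 did not overlap either, at 1566, 1500, 1425 and 1602 CPM in DOCA-salt and 1105, 1293, 1313 and 1349 CPM in sham mice (log2 change 0.22, SE 0.12, edgeR adjusted p = 0.538). In this cluster 3.16% of 3074 genes were higher in DOCA-salt mice without overlap, and 1.07% were called. Apoe (log2 change 0.89) and the resident marker Cd163 (1.03) were called higher in the same cells, with edgeR adjusted p of 8.97e-05 and 0.0191. Their part in the Fc receptor values was not tested.

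The balance of activating to inhibitory Fc receptor UMIs, (Fcgr1 + Fcgr3 + Fcgr4) over Fcgr2b, was 1.78, 1.70, 1.17 and 1.82 in resident-type cells of DOCA-salt mice and 1.97, 2.03, 2.06 and 1.81 in those of sham mice. The groups overlapped by 1 mouse (means 1.62 ± 0.30 and 1.97 ± 0.11, SD, n = 4 each; two-sided exact permutation p = 0.0571). Over all macrophage-like cells the ratio averaged 1.78 ± 0.28 in DOCA-salt and 1.99 ± 0.20 in sham mice (exact permutation p = 0.286). The ratio was also computed in classical and nonclassical monocyte-like and NK-like cells, with exact permutation p from 0.457 to 0.486. The Fcgr2b change in resident-type cells exceeded that in B-like cells by 0.48 on the log2 scale (exact permutation p = 0.0286, the smallest possible, adjusted over 5 comparisons 0.143). The 5 comparisons between classes were not among the planned tests, so this p describes a chosen pair.

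Across clusters the receptors were spread unevenly. Fcgr2b averaged 829 ± 58.9 CPM in DOCA-salt and 579 ± 80.8 CPM in sham mice in the Ifit1-led cluster, without overlap (log2 change 0.57, edgeR adjusted p = 0.996, with 1.14% of 700 genes higher without overlap, 0 called and 20 at an unadjusted p under 0.05). Of the 227 DOCA-salt cells behind that value 151 came from mouse 1, and there were 23 sham cells. In the Ccl8-led cluster Fcgr2b averaged 282 ± 105 CPM in DOCA-salt and 211 ± 79.4 CPM in sham mice, which overlapped. Fcgr3 there had 1062, 1062, 552 and 1663 CPM in DOCA-salt mice and 491, 658, 826 and 860 CPM in sham mice, which overlapped (log2 change 0.73, edgeR adjusted p = 0.316). Fcgr4 in that cluster was 98.2, 0, 0 and 0 CPM in DOCA-salt mice, against 123, 164, 184 and 172 CPM in sham mice. Those rest on 21 DOCA-salt and 9 sham UMIs (exact permutation p = 0.0286, unadjusted). The cluster held 68, 22, 3 and 9 cells of the DOCA-salt mice and 6, 16, 8 and 9 of the sham mice. With so few cells a 0 need not mean absence. Of the 214 genes that passed the count filter in the cluster 6.54% were lower without overlap, with 2.34% called. Fcgr4 did not pass it, so those shares are not a background for it.

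**Figure D4:**
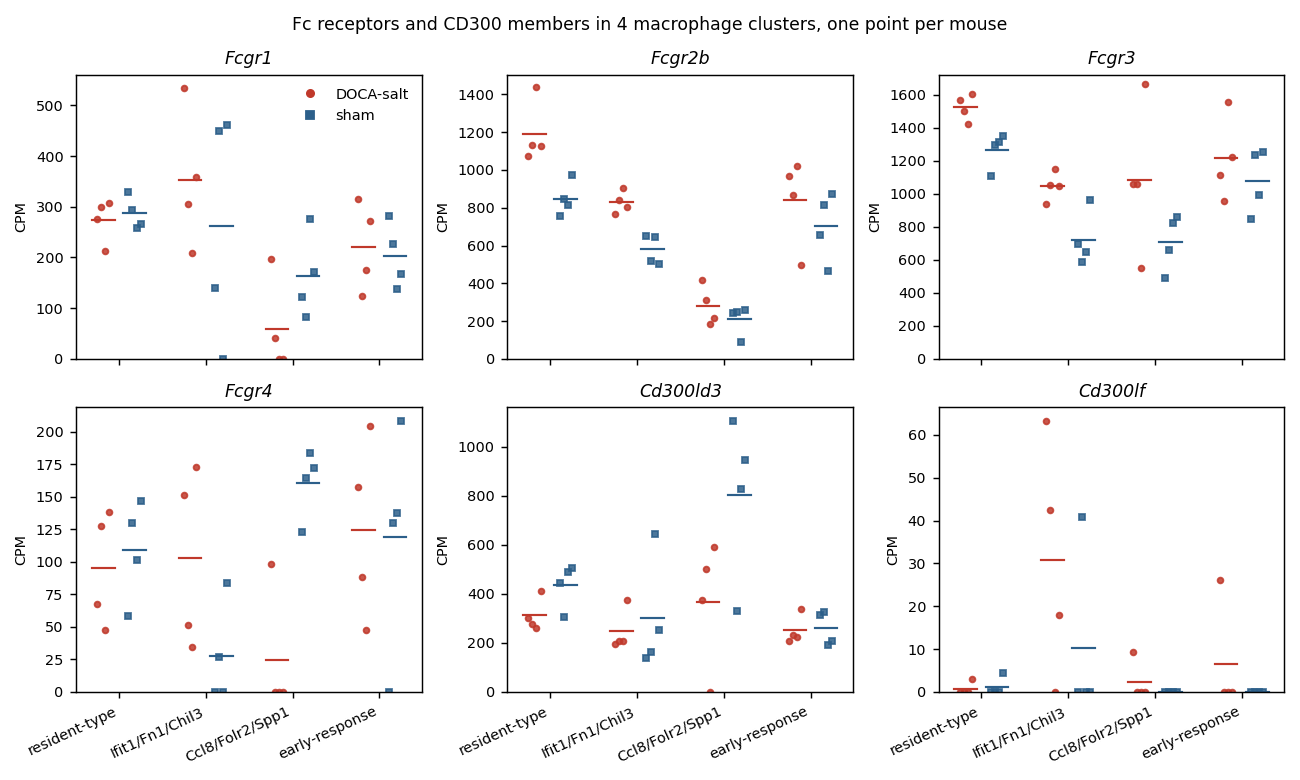
CPM of 6 of the genes in 4 macrophage clusters named by their leading genes, with 1 point per mouse, DOCA-salt circles left, sham squares right and group means as lines. Fcgr2b and Fcgr3 in resident-type cells are higher in all DOCA-salt mice than in all sham mice, and Cd300lf is detected mainly in the Ifit1-led cluster.

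Cd300lf, low in macrophages, was found in 7.10% of DOCA-salt macrophage-like cells (95% Clopper-Pearson interval 5.32% to 9.26%) and 1.02% of sham ones (0.212% to 2.96%), intervals that cover counting error only. B-like cells, as a background, had a UMI in 0.376% of DOCA-salt and 0.35% of sham cells. With each cell thinned to 1000 UMIs the macrophage shares were 1.68% and 0.407%. Per mouse it stood at 42.9, 13.1, 0 and 6.82 CPM in DOCA-salt mice and 0, 9.75, 0 and 3.27 CPM in sham mice, which overlapped (exact permutation p = 0.257). DOCA-salt mouse 1, the highest, gave most cells of the Ifit1-led cluster, where 18.9% of DOCA-salt and 8.70% of sham cells held a Cd300lf UMI. The gene did not pass the count filter; without the filter its log2 change was 2.31 (SE 0.63, edgeR adjusted p = 0.030).

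In classical monocyte-like cells, the cells newly come from blood, none of the 6 members tested was called, against 0.0631% of 1586 genes. Fcgr1 stood at 214.5, 147, 71.9 and 134 CPM in DOCA-salt mice and 34.0, 114, 155 and 165 CPM in sham mice, which overlapped (log2 change 0.58, SE 0.49, edgeR adjusted p = 0.892). Fcgr3 averaged 453 ± 31.0 CPM in DOCA-salt and 593 ± 176 CPM in sham mice (log2 change -0.34, edgeR adjusted p = 0.797), a value that turned positive under other filters. Fcgr4 was at 22.3, 47.0, 28.7 and 14.6 CPM in DOCA-salt mice and at 0 in all sham mice (exact permutation p = 0.0286, unadjusted). Of the 63 pairs tested this way, 3 had an unadjusted exact permutation p under 0.05. Of the 1586 genes that passed the count filter, 3.22% were higher without overlap. Fcgr4 did not pass it, so that share is not a background for a gene this low. It was held by 15.2% of 138 DOCA-salt cells (95% Clopper-Pearson interval 9.67% to 22.3%) and by 0 of 27 sham cells, which allows a share of up to 11.1%, within that interval. After thinning the shares were 1.45% and 0%, so a difference in the share of cells was not detectable at this depth. In B-like cells the shares were 0.225% in DOCA-salt and 0.551% in sham mice.

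Neutrophil-like cells, with 13 sham cells in all, gave no call among 3 members tested, nor among 338 genes, of which 13 had an unadjusted p under 0.05 by edgeR and 0 were called by DESeq2. Cd300lf was at 461, 671, 501 and 516 CPM in DOCA-salt mice and 525, 947, 1035 and 606 CPM in sham mice, with overlap (log2 change -0.29, edgeR adjusted p = 0.976). Fcgr3 averaged 684 ± 139 CPM in DOCA-salt and 526 ± 269 CPM in sham mice (log2 change 0.37, adjusted p = 0.976). In cDC1- and cDC2-like cells pooled, 82 DOCA-salt and 14 sham cells, Fcgr2b averaged 265 ± 160 CPM in DOCA-salt and 186 ± 208 CPM in sham mice (log2 change 0.75, SE 0.80, edgeR adjusted p = 0.997). In plasmacytoid dendritic-like cells Cd300a averaged 507 ± 125 CPM in DOCA-salt and 586 ± 196 CPM in sham mice (log2 change -0.20, edgeR adjusted p = 0.997).

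B-like cells held the inhibitory Fcgr2b at nearly the same level in every mouse, 102, 118, 121 and 114 CPM in DOCA-salt and 117, 111, 102.5 and 125 CPM in sham mice (log2 change -0.003, SE 0.09, edgeR adjusted p = 0.999). Fcgr3, a myeloid receptor, was at 24.0, 21.9, 18.3 and 18.1 CPM in DOCA-salt B-like cells and 15.2, 17.0, 13.6 and 9.42 CPM in sham ones. The groups did not overlap, as for 3.33% of 8522 genes in this direction, and the test was not passed (log2 change 0.61, SE 0.21, edgeR adjusted p = 0.204, with 1.43% of genes called). Some transcripts of other cells were also higher in DOCA-salt B-like cells, and others were not. The 8 neutrophil markers summed to 42.2 to 56.5 CPM in DOCA-salt and 2.51 to 8.65 CPM in sham B-like cells. A C1q UMI was in 40.6% to 46.0% of DOCA-salt and 31.8% to 35.4% of sham cells. The 7 cDC2 markers summed to 877 to 1116 CPM in DOCA-salt and 996 to 1121 CPM in sham mice. For the 6 T markers the sums were 7.32 to 17.1 and 11.6 to 16.1 CPM. The part of such transcripts in the Fcgr3 value was not tested. NK-like cells held Fcgr3 at 83.0 ± 16.7 CPM in DOCA-salt and 76.2 ± 16.8 CPM in sham mice and Fcer1g at 3669 ± 144 and 3513 ± 120 CPM (log2 changes -0.11 and 0.02, edgeR adjusted p = 0.912 and 0.98). For Fcgr3 the fitted change and the CPM means had opposite signs, so no direction is read from them. Fcgr2b in NK-like cells averaged 51.9 ± 7.50 CPM in DOCA-salt and 59.4 ± 18.3 CPM in sham mice (log2 change -0.30, edgeR adjusted p = 0.693).

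The surface protein made from Fcgr1 was read by the CD64 antibody. Macrophage-like cells carried 1352, 990, 1423 and 1007 CD64 UMIs per cell in DOCA-salt mice and 907, 1210, 1302 and 1363 in sham mice. The groups overlapped fully, with means of 1193 ± 227 and 1196 ± 202 (SD, n = 4 each). Per 10000 UMIs of the 16 surface antibodies the means were 1708 ± 214 in DOCA-salt and 1794 ± 245 in sham mice, a difference of -86.4 (two-sided exact permutation p = 0.571, adjusted over 8 classes 0.784). Neutrophil-like cells carried 425 ± 191 per cell in DOCA-salt and 403 ± 277 in sham mice, while their Fcgr1 RNA was 21.1 CPM in DOCA-salt mice and 0 in all sham mice. Classical monocyte-like cells had 280 ± 69.2 per cell in DOCA-salt and 344 ± 203 in sham mice. That was near the nonclassical cells (297 ± 89.5 and 241 ± 72.9) and near T-like cells (204 ± 62.7 and 318 ± 71.2), which should lack the protein. Per 10000 surface antibody UMIs the order differed. Neutrophil-like cells averaged 192 in DOCA-salt and 191 in sham mice, and classical monocyte-like cells 234 and 307. Nonclassical cells averaged 273 and 254, and B-like cells 564.5 and 674. By this share these monocytes and neutrophils lay below B-like and T-like cells, so they did not stand above lymphocyte background. T-like cells had the smallest p of the 8 classes, with lower values in DOCA-salt mice (per 10000, 409 ± 84.9 against 596 ± 106 in sham mice; exact permutation p = 0.0571, adjusted 0.457).

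Antibody counts above the T-cell background picked out macrophages. A count above 1360 per cell, the 99th percentile of T-like cells, was reached by 32.5% of DOCA-salt macrophage-like cells (95% interval 29.1% to 36.1%) and 35.8% of sham ones (30.3% to 41.6%). Of classical monocyte-like cells 0.725% in DOCA-salt and 3.70% in sham mice reached it, or 1 cell in each. Neutrophil-like cells reached it in 3.9% of 154 DOCA-salt cells and 0 of 13 sham cells. The threshold pooled T-like cells of both groups, of which 0.539% in DOCA-salt and 2.07% in sham mice were above it. The background therefore differed between the groups, and the macrophage shares are not compared between them. Within macrophage-like cells thinned to 1000 RNA UMIs, the share with an Fcgr1 UMI in 4 bins of CD64 count, low to high, was 24.7%, 25.6%, 20.7% and 21.7% in DOCA-salt mice. In sham mice it was 23.1% in the lowest bin, 23.5% and 21.6% in the next bins and 13 of 65 cells in the highest. Above the T-cell threshold the share was 21.9% in DOCA-salt and 23.8% in sham mice, and at or below it 24.0% and 20.7%, so the groups went opposite ways. The highest bin also had the most UMIs of all surface antibodies, at a median of 11467 per DOCA-salt and 9520 per sham cell.

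**Figure D5:**
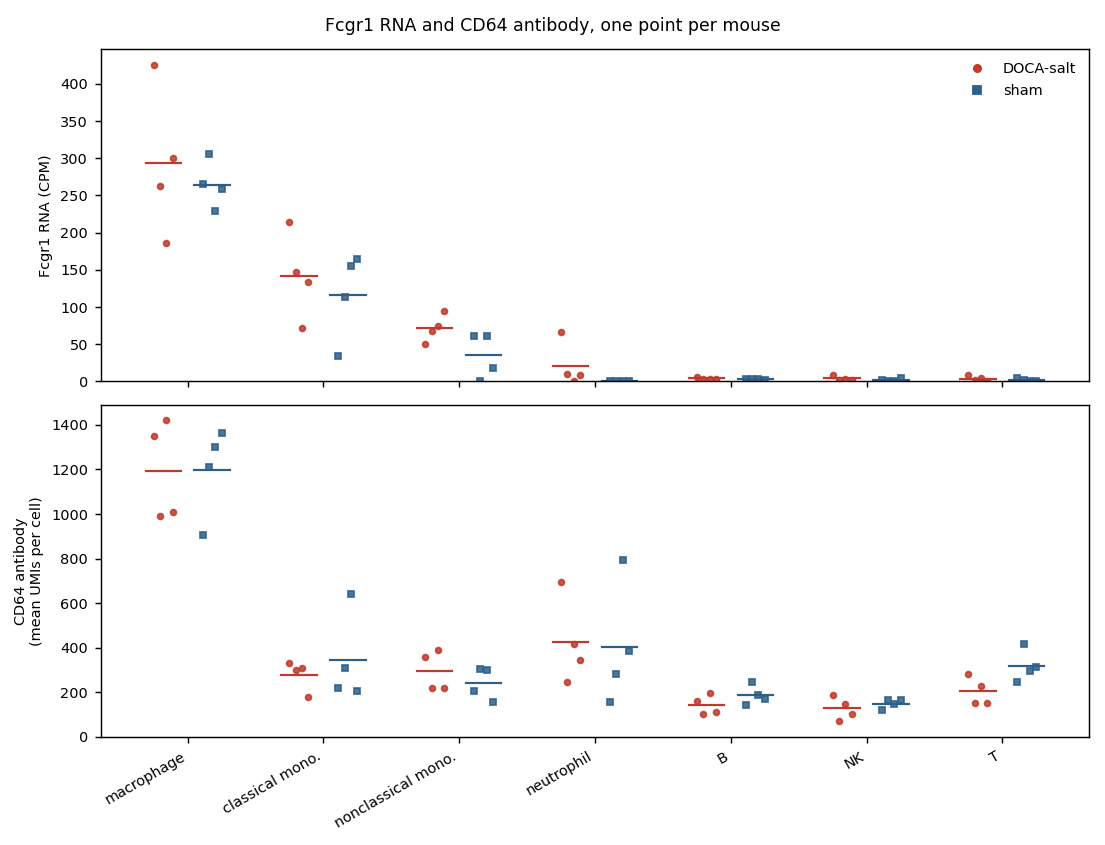
Fcgr1 RNA in CPM (upper panel) and CD64 antibody in mean UMIs per cell (lower panel) for 7 classes, with 1 point per mouse, DOCA-salt circles left, sham squares right and group means as lines. Macrophage-like cells are highest in both panels, at 186 to 425 CPM and 907 to 1423 antibody UMIs per cell, with the groups overlapping.

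Genes around these receptors were read from 4 lists, which describe counts only. Of the 7 other CD300 genes, 2 were tested in macrophage-like and 2 in nonclassical monocyte-like cells and none was called in the 8 classes read. Cd300ld averaged 364 ± 112 CPM in DOCA-salt and 480 ± 110 CPM in sham nonclassical monocyte-like cells (log2 change -0.37, edgeR adjusted p = 0.454). Of 24 signalling genes downstream of the activating and inhibitory motifs, 18 were tested in nonclassical monocyte-like cells and none was called, with a median log2 change of -0.10 against 0.001 for all genes. The adaptor Grb2 (-0.68), the kinase Syk (-0.58), which docks to the gamma chain, and Fyn (-0.89) had unadjusted p under 0.05 there, and edgeR adjusted p from 0.136 to 0.219. In that class 215 of all 1696 genes tested had an unadjusted p under 0.05, so no trend is read from these genes. In macrophage-like cells 20 signalling genes were tested, none was called and the median was -0.14 against 0.004. Of these 20, 2 had an unadjusted p under 0.05, in opposite directions, beside 394 of all 4378 genes tested. Lyn averaged 407 ± 58.3 CPM in DOCA-salt and 523 ± 14.6 CPM in sham mice (log2 change -0.38, edgeR adjusted p = 0.444), and Plcg2 averaged 68.4 ± 12.1 and 47.8 ± 3.53 CPM (0.49, edgeR adjusted p = 0.553).

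Calls on these lists came from resident-type macrophages and lymphocytes. Of 27 other paired receptors in the files, 18 were tested in resident-type cells and Pilra, an inhibitory receptor, was called lower, beside 0.683% of all genes called lower, at 67.4 ± 32.7 CPM in DOCA-salt and 179 ± 49.4 CPM in sham mice (log2 change -1.18, edgeR adjusted p = 0.0193). The 8 nonclassical monocyte markers also summed lower in this cluster, to 214 to 459 CPM in DOCA-salt and 470.5 to 693 CPM in sham mice, with Ace at 0, and their part in the Pilra value was not tested. In B-like cells Inpp5d, the phosphatase SHIP1 that acts downstream of Fcgr2b, was called lower, at 123 ± 14.6 CPM in DOCA-salt and 168 ± 9.10 CPM in sham mice (log2 change -0.44, adjusted p = 0.036). Grb2 was called lower in B-like cells (-0.61, adjusted p = 0.000406) and in NK-like cells (-0.66, adjusted p = 0.0124). Fcrla, an Fc receptor-like gene of B cells, fell to 251 ± 22.2 CPM in DOCA-salt, against 357 ± 25.8 CPM in sham mice (-0.49, adjusted p = 0.00538). Cd72 in B-like cells (-0.57, adjusted p = 0.0442) and Fyn in NK-like cells (-0.60, adjusted p = 0.0017) were the others. In B-like cells 2 of 20 tested signalling genes, 1 of 7 Fc receptor genes and 1 of 7 paired receptors were called, all lower, beside 1.43% of all genes called and 1.07% called lower. In NK-like cells 2 of 19 signalling genes were called lower, beside 0.981% of 6522 genes called and 0.767% called lower.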

How the data were processed

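Leukocytes of 4 DOCA-salt and 4 sham mice were pooled into 1 library per group. The authors deposited raw UMI counts per feature and barcode for 31053 genes and 20 antibodies (4 hashtags, 16 surface), made with Cell Ranger, software version 3.1.0 per the file headers; Seurat 4 and mm10 are named per the submitters' processing notes. The other deposited lists hold text identifiers. Here, barcodes needed at least 200 genes and no more than 10% mitochondrial UMIs, Scrublet doublets (243 DOCA-salt, 53 sham) and cells whose top hashtag was under 2 times the second (321 and 136) were removed, and 2000 variable genes and 30 components were clustered (scanpy 1.11.5, Leiden 1.0; macrophages 0.6). A class needed 3 markers of its list; the rule that sets mixed clusters aside was made after the clusters were seen. Summed UMIs were tested with filterByExpr, TMM and quasi-likelihood in edgeR 4.0.16 (R 4.3.3), checked on simulated data; for members outside the filter the CPM of the mice entered an exact permutation test, two-sided (smallest p 0.0286) when they had at least 10 UMIs. Class totals per mouse ran from 188575 to 1724008 UMIs in DOCA-salt and 113134 to 307830 in sham macrophage-like cells, and from 80689 to 189426 and 54500 to 115176 in nonclassical monocyte-like cells. Positions are from GENCODE M21. All members are named in every class they bear on, with up to 4 genes of largest change and every call per list, and the 5 genes most like Fcgr1, Fcgr4 and Cd300e, of which 1 is not reported here; other genes were named after their values were seen. Members and lists were chosen with earlier results of these data known. Alternatives were DESeq2 1.42.0, other scaling, filters and clusterings, and leaving out each mouse.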

Additional observations from a re-analysis of the deposited data

Results flagged for a closer look

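In 90 groups of 4 mice looked at, 6 had a highest or lowest mouse whose gap to the next, as a share of the group's range, was over Dixon's 95% critical value; chance flags about 1 in 20 groups. Fcgr2b in resident-type macrophages was 1437 CPM in DOCA-salt mouse 3, against 1073 to 1132 CPM in the other DOCA-salt mice. Fcgr2b in classical monocyte-like cells was 387.9 CPM in DOCA-salt mouse 2, against 211.7 to 235.5 CPM in the others. Cd300c2 in nonclassical monocyte-like cells was 495.7 CPM in DOCA-salt mouse 3, against 849.1 to 874.6 CPM. Cd300c2 in resident-type macrophages was 416.0 CPM in sham mouse 3, against 364.0 to 368.3 CPM in the other sham mice. The CD64 antibody per 10000 surface antibody UMIs was 400.8 in neutrophil-like cells of sham mouse 3, a single cell, against 88.05 to 138.5 in the other sham mice. In NK-like cells it was 366.1 in sham mouse 1, against 475.8 to 494.7 in the others.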

How the results depend on the processing

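The lower Cd300ld3 level in nonclassical monocyte-like cells kept its direction under 19 alternatives. Leaving out each mouse in turn gave log2 changes of -0.85 to -0.61, and the call was lost without sham mouse 2. It was also lost among cells without Chil3, Ccr2 or Vcan UMIs (-0.13) and among cells without C1q UMIs (-0.56), both with fewer cells and chosen after seeing the data, the first by a gene (Chil3) that itself differed; among the first, the Cd300e change was 0.005. Instead of 1 called pair of member and class there were 2 without the count filter (adding Cd300lf in macrophage-like cells), 2 with at least 500 genes and at most 5% mitochondrial UMIs (adding Cd300e in nonclassical monocyte-like cells), 5 at Leiden resolution 0.5, which merged classical with nonclassical monocytes, and 0 to 1 when each mouse was left out. Without the count filter Fcgr3 in classical monocyte-like cells changed by 0.005, and with at least 10 cells per mouse by 0.24; Cd300c2 in macrophage-like cells changed by -0.055 with clusters weighted equally. The CD64 difference in macrophage-like cells stayed between -204 and -10.0 when each mouse was left out. In neutrophil-like cells it was -127 by the median over cells and -32.5 to 71.7 without 1 mouse, in conventional dendritic cells -216 to 36.6, and in nonclassical monocyte-like cells -10.3 to 47.8. The causes were not tested. No paired analysis was possible because hashtag numbers link no DOCA-salt mouse to a sham mouse. Few sham cells limit classical monocyte-like, neutrophil-like and dendritic classes, where small differences were not detectable at this depth.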
